A study of Mus musculus with 21 samples.

Results

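The genes described here encode 10 surface proteins through which a B cell stimulates or restrains a T cell, namely Cd80, Cd86, Cd83, Cd40, Icosl, Cd274, Pdcd1lg2, Tnfsf4, Tnfsf9 and Cd70. They were chosen by name, with earlier results of these data known, and each had 1 row among the 23337 gene symbols of the count table. Bulk RNA was sequenced from B cells of C57BL/6 mice aged 8 to 12 weeks. The cells had been sorted from spleen, from Peyer's patches (PP, the follicles in the small intestine's wall) and from mesenteric lymph nodes (mLN). Cells were labelled HEL neg, HEL pos or BCL2 HEL pos, with no expansion of HEL or BCL2 given, and the series title concerns gut B cells that react to self. Every tissue had 1 HEL neg library, which is a pool, 3 HEL pos libraries (a pool, 392 and 399) and 3 BCL2 HEL pos libraries (922, 926 and 950), or 21 libraries in 9 groups. The labels state no promoter, allele or number of mice per library, so p-values measure only how far libraries of 1 group spread, and part of that may be technical. In bulk RNA, fewer cells that carry a transcript and less transcript per cell cannot be told apart.

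A T cell that recognises antigen on a B cell reads a second set of signals from the B cell surface. CD80 and CD86 bind CD28 and the restraining receptor CTLA-4, ICOS ligand (Icosl) binds ICOS, and OX40 ligand (Tnfsf4), 4-1BB ligand (Tnfsf9) and CD70 engage receptors of the tumour necrosis factor receptor family. PD-L1 (Cd274) and PD-L2 (Pdcd1lg2) bind the inhibitory receptor PD-1, while CD40 receives the T cell's CD40 ligand and CD83 is an activation marker that stabilises MHC class II and CD86 at the surface.

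Cd83, Pdcd1lg2 and Tnfsf4 were higher in both gut-associated tissues than in spleen, in HEL pos and in BCL2 HEL pos cells. Cd40 and Icosl went the other way in mLN, where both had the lowest mean of the 3 tissues in each of these kinds of cells. Cd274, the neighbour of Pdcd1lg2 on the chromosome, was not called between any tissues of HEL pos cells, and in BCL2 HEL pos cells it was higher in PP and mLN than in spleen. Icosl was higher in BCL2 HEL pos than in HEL pos cells of each tissue, and Tnfsf4 was lower in mLN and PP. Tests of Tnfsf4 are a description, as it met the minimum count only through its high groups. Cd80 and Tnfsf9 were highest in the 3 HEL neg pools, and Cd70 was near 0 throughout.

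Library totals ran from 5475131 to 11340876 counts. The 18 pairs of libraries of 1 group differed by more than sampling noise, with a chi-square per degree of freedom of 8.56 to 55.3. Summed Y-linked transcripts were at most 0.844 CPM (counts scaled to a library of fixed size) in HEL pos libraries 392 and 399 of every tissue and 95.8 to 164 CPM in the other 15, so the pooled HEL pos libraries stand apart from 392 and 399. Among those 15 are all BCL2 HEL pos and HEL neg libraries. The sex that these transcripts reflect is thus partly confounded with the kind of cell wherever HEL pos cells are compared with either. Bcl2 itself was at 48.6 to 100.2 CPM in HEL pos, 133.8 to 181 CPM in BCL2 HEL pos and 93.1 to 101 CPM in HEL neg libraries. Olfactory and vomeronasal receptor transcripts reached 815 and 698 CPM in PP HEL pos libraries Pool and 399, against 53.6 to 491 CPM elsewhere. Summed transcripts of 10 gut epithelial markers were at 251 to 1069 CPM in PP HEL pos, 39.8 to 179 CPM in PP BCL2 HEL pos and 1168 CPM in PP HEL neg libraries, and at most 68.7 CPM in spleen and mLN. The 6 B cell markers summed to 9126 CPM or more in all libraries. In HEL pos cells all 6 fell against spleen (19559 to 21622 CPM) in mLN (9126 to 10377 CPM) and in PP (10252 to 13201 CPM), and in BCL2 HEL pos cells 3 of 6 fell in each of these tissues. Granulocyte markers summed to 51.0 to 193 CPM in spleen HEL pos and 72.4 CPM in spleen HEL neg libraries, and to at most 1.01 CPM in all others. How far other cells or library quality contributed to the differences below was not tested.

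Expressed per kilobase of all annotated exons of a gene, so that genes can be compared, the mean level over the 21 libraries was by far highest for Cd83, at 405 CPM per kilobase. Cd40 followed at 51.2, Pdcd1lg2 at 33.8, Icosl at 29.5, Cd86 at 22.4 and Cd274 at 17.9 CPM per kilobase. Tnfsf9 (3.31), Tnfsf4 (2.87), Cd80 (0.153) and Cd70 (0.0932 CPM per kilobase) were far below them. Of the pair that binds CD28, Cd86 thus stood far above Cd80. Cd80 gathered 81 counts in all libraries together and Cd70 gathered 11. Both stayed below the minimum count of the 18-library fit, which tested the 8 other genes, and Cd80 passed it in the comparisons with HEL neg cells.

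**Figure D1:**
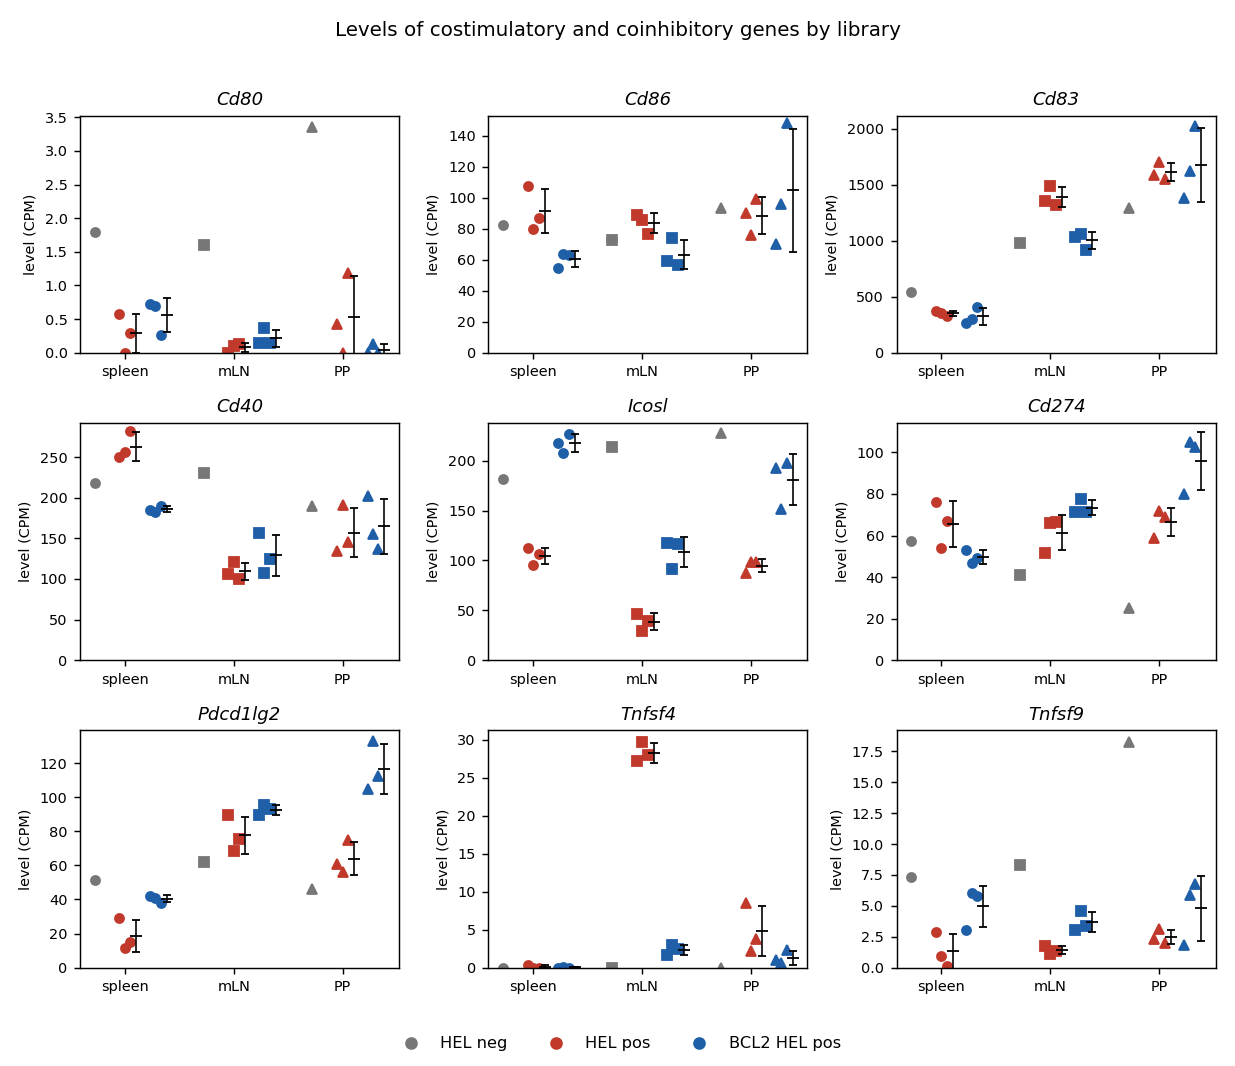
Level of each gene (CPM, vertical axis) in each of the 21 libraries, by tissue and kind of cell, with points for libraries and bars for the mean and SD of groups of 3 (Cd70, with 11 counts in all, is not drawn). Cd83 lies at 261 to 541 CPM in spleen and at 918 to 2027 CPM in mLN and PP, and the 3 mLN HEL pos libraries stand alone in Tnfsf4.

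Cd86 and Cd80 encode the ligands of CD28 and CTLA-4. They lie on chromosome 16 (mm10), Cd86 at 36603869 to 36666081 on the minus strand and Cd80 at 38455561 to 38496335 on the plus strand. In HEL pos libraries Pool, 392 and 399 Cd86 stood at 107, 79.6 and 87.1 CPM in spleen, 89.0, 85.7 and 76.5 CPM in mLN and 90.3, 75.9 and 99.1 CPM in PP. These 3 tissues overlapped, and no tissue difference was called: the difference of PP from spleen was -0.01 on the log2 scale, with a 95% interval of -0.43 to 0.41 (adjusted p = 0.98). BCL2 HEL pos libraries 922, 926 and 950 held Cd86 at 54.8, 63.8 and 63.0 CPM in spleen, 59.0, 74.2 and 56.6 CPM in mLN and 70.3, 95.7 and 148 CPM in PP. Every PP library lay above every spleen library, and the difference was 0.78 ± 0.20 (log2 ± SE, adjusted p = 0.0187), but PP library 950 was far above the other two and without it the difference was 0.43 (adjusted p = 0.211). The call was also lost without spleen library 922 (adjusted p = 0.0892) or 926 (adjusted p = 0.0523). The difference between PP and mLN, 0.72 ± 0.20, missed the threshold at an adjusted p of 0.0966 and passed it without PP library 922 (0.94, adjusted p = 0.0168).

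Within a tissue Cd86 was not called by edgeR in the 18-library fit between the 2 kinds of HEL pos cells. In spleen the 3 BCL2 HEL pos libraries lay below the 3 HEL pos libraries, with a difference of -0.58 ± 0.20 and an adjusted p of 0.0736, and it was called with DESeq2 (adjusted p = 0.0397), without the filter on low counts (0.0116) and in a fit of only the libraries compared (0.0214). In mLN that last fit also gave a call (-0.40, adjusted p = 0.0473). HEL neg pools held 82.2, 72.7 and 93.6 CPM in spleen, mLN and PP, inside the range of the other libraries. Cd80 had 13, 10 and 20 counts in the HEL neg pools of spleen, mLN and PP (1.79, 1.60 and 3.35 CPM), and at most 7 counts in any other library. It met the minimum count in these fits through the HEL neg pools alone, so their tests describe that choice and support no difference. With tissue as a covariate they gave for HEL pos cells a difference of -2.98 ± 0.80 (adjusted p = 0.0331) and for BCL2 HEL pos cells one of -3.24 ± 0.69 (adjusted p = 0.00481). Both calls rest on few counts. That in HEL pos cells was lost without any 1 of the HEL neg pools or of the mLN HEL pos libraries (adjusted p 0.0523 to 0.262), and that in BCL2 HEL pos cells without the PP HEL neg pool (-2.14, adjusted p = 0.0782). Of the 19 Cd80 counts of BCL2 HEL pos cells, 13 were in spleen and 1 in PP, a PP to spleen ratio of 0.0662 with a counting interval of 0.00156 to 0.441. Of the dendritic cell markers, 4 of 8 tested fell in HEL pos against HEL neg cells, where 5.22% of all genes were called lower. In BCL2 HEL pos against HEL neg cells 4 of 7 fell, where 8.1% of all genes did. Siglech was among them, at 24.5, 36.2 and 7.21 CPM in the HEL neg pools of spleen, mLN and PP and at most 1.63 CPM in the means of the other groups. The summed level of the dendritic cell markers, most of it Ccr7, was 494, 508 and 315 CPM in the HEL neg pools and 389 to 1268 CPM in the other libraries. Also lower in BCL2 HEL pos than in HEL neg cells were 6 of 10 T cell markers. The part of such cells in the Cd80 counts was not tested.

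Cd83 lies on chromosome 13 (43784775 to 43803132, plus strand). HEL pos libraries held 370.4, 358 and 328 CPM in spleen, 1358, 1487 and 1322 CPM in mLN and 1582, 1702 and 1550.2 CPM in PP. BCL2 HEL pos libraries held 261, 302 and 408 CPM in spleen, 1034, 1056 and 918 CPM in mLN and 1380.0, 1619 and 2027 CPM in PP. Every mLN and PP library was above every spleen library, and the HEL neg pools had the same order, at 541, 979.5 and 1296 CPM in spleen, mLN and PP. Against spleen, the difference in HEL pos cells was 2.23 ± 0.16 in PP and 1.98 ± 0.16 in mLN (adjusted p = 2.69e-08 and 1.65e-08), and in BCL2 HEL pos cells 2.36 ± 0.16 and 1.63 ± 0.16 (adjusted p = 1.98e-08 and 1.21e-06). PP exceeded mLN in BCL2 HEL pos cells by 0.74 ± 0.15 (adjusted p = 0.0178), a call that was lost without mLN library 922, 926 or 950 or PP library 950 (adjusted p 0.0556 to 0.122). In HEL pos cells that difference was 0.25 (95% interval -0.07 to 0.56, adjusted p = 0.326). Between HEL pos and BCL2 HEL pos cells Cd83 was not called in any tissue in the 18-library fit. The nearest was mLN, where the 3 BCL2 HEL pos libraries lay below the 3 HEL pos libraries, with a difference of -0.46 (adjusted p = 0.0519). There it was called in 5 alternatives, namely DESeq2 (adjusted p = 0.0142), its size factors (0.0448), no filter on low counts (0.04), only the libraries compared (0.00882) and without PP HEL pos libraries 399 and Pool (0.0486).

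Cd40, on chromosome 2 (165055627 to 165072948, plus strand), encodes the receptor through which T cell help reaches the B cell. Its mean was highest in spleen. HEL pos libraries held 251, 256 and 283 CPM in spleen, 106, 121 and 100.2 CPM in mLN and 134, 191 and 145 CPM in PP. BCL2 HEL pos libraries held 186, 183 and 189.7 CPM in spleen, 157, 107 and 124 CPM in mLN and 202, 155 and 137 CPM in PP. In HEL pos cells the 3 spleen libraries were the highest of all 21, and mLN and PP were below them without overlap. Cd40 was lower in mLN than in spleen, with a difference of -1.27 ± 0.16 in HEL pos cells (adjusted p = 5.16e-06) and of -0.53 ± 0.16 in BCL2 HEL pos cells (adjusted p = 0.0348). The latter call was lost without mLN library 926 or 950 or any 1 of the 3 spleen libraries (adjusted p 0.0911 to 0.215). In PP the difference from spleen was -0.71 ± 0.16 in HEL pos cells (adjusted p = 0.00353), and -0.46 (adjusted p = 0.247) without PP libraries 399 and Pool. In BCL2 HEL pos cells it was -0.19 (95% interval -0.51 to 0.14, adjusted p = 0.587). PP HEL pos cells exceeded mLN HEL pos cells by 0.56 ± 0.16 (adjusted p = 0.0318), which was lost without PP library 392 or any 1 of the mLN libraries (adjusted p 0.0663 to 0.114). Between the 2 kinds of cells, the spleen BCL2 HEL pos libraries were all below the spleen HEL pos libraries, with a difference of -0.49 that missed the threshold (adjusted p = 0.0537). It passed with DESeq2 (adjusted p = 0.0194), its size factors (0.0412), no filter (0.028), only the libraries compared (0.0146) and without PP HEL pos libraries 399 and Pool (0.0371). HEL neg pools, at 218, 229.9 and 189.6 CPM in spleen, mLN and PP, did not show the low mLN level of the other cells. Against them, Cd40 was lower in BCL2 HEL pos cells, with a difference of -0.44 ± 0.14 (adjusted p = 0.0482), a marginal call that was lost on leaving out any of 9 libraries in turn (the mLN and PP HEL neg pools, all spleen BCL2 HEL pos libraries and 926 and 950 of mLN and PP), most of all the mLN pool (-0.23, adjusted p = 0.405). In HEL pos cells the difference of -0.40 was not called (adjusted p = 0.195), and without the spleen HEL neg pool it was -0.70 (adjusted p = 0.0162).

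Cd40 is also expressed by myeloid cells, and markers of other blood cells moved with it in comparisons with spleen HEL pos cells. Against spleen HEL pos cells, granulocyte markers fell in 4 of 4 tested in mLN and in PP, and 4 of 4 fell in spleen BCL2 HEL pos cells too. Macrophage and monocyte markers fell in 4 of 8 in mLN and 1 of 8 in PP, with sums of 31.8 to 57.0 CPM in spleen, 11.6 to 28.4 CPM in mLN and 10.6 to 27.0 CPM in PP. Erythroid markers fell in 3 of 3 and 1 of 3, with sums of 41.6 CPM or more in spleen and at most 12.0 CPM in mLN and PP. In BCL2 HEL pos cells 1 of 3 erythroid markers fell in mLN against spleen, no granulocyte or macrophage marker was called between tissues, and spleen granulocyte markers summed to at most 0.577 CPM. In the HEL neg pools of spleen, mLN and PP, granulocyte markers summed to 72.4, 0.641 and 0.671 CPM. Macrophage and monocyte markers summed to 52.5, 17.5 and 16.6 CPM there and erythroid markers to 29.2, 6.41 and 35.2 CPM. Cd40 was at 218, 229.9 and 189.6 CPM in the same pools. The part of such cells in the Cd40 differences was not tested.

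Icosl, on chromosome 10 (78069302 to 78083913, plus strand), encodes the ligand of ICOS, the receptor that follicular helper T cells depend on. HEL pos libraries held 112, 95.7 and 106 CPM in spleen, 46.3, 29.2 and 39.7 CPM in mLN and 87.3, 98.4 and 98.8 CPM in PP. BCL2 HEL pos libraries held 218, 208 and 227 CPM in spleen, 118, 91.0 and 117 CPM in mLN and 193, 152 and 198 CPM in PP. In each tissue the 3 BCL2 HEL pos libraries were above the 3 HEL pos libraries, and mLN was the lowest tissue of each. BCL2 HEL pos cells exceeded HEL pos cells by 1.07 ± 0.15 in spleen, 1.51 ± 0.16 in mLN and 0.90 ± 0.15 in PP (adjusted p = 1.28e-04, 4.93e-06 and 0.00111). These 3 calls held in every alternative run. The libraries of these 2 kinds of cells carry different numbers throughout, so that the kind of cell and the set of source animals cannot be told apart. HEL pos libraries 392 and 399 also lack the Y-linked transcripts that all BCL2 HEL pos libraries carry, so sex is partly confounded with the kind of cell.

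Between tissues, Icosl was lower in mLN than in spleen, with a difference of -1.45 ± 0.16 in HEL pos and -1.01 ± 0.15 in BCL2 HEL pos cells (adjusted p = 1.02e-06 and 1.82e-04). PP exceeded mLN by 1.34 ± 0.16 and 0.73 ± 0.15 (adjusted p = 5.03e-05 and 0.0178). In BCL2 HEL pos cells this last call was lost without PP library 922 or 950 or mLN library 926 or 950 (adjusted p 0.0627 to 0.184). PP and spleen were not called apart, with 95% intervals of -0.43 to 0.21 in HEL pos and -0.59 to 0.04 in BCL2 HEL pos cells. The HEL neg pools held 182, 214 and 228 CPM in spleen, mLN and PP and thus lacked the low mLN level. HEL pos cells were below them, with a difference of -1.58 ± 0.22 (adjusted p = 5.65e-04). For BCL2 HEL pos cells the difference was -0.40 (95% interval -0.75 to -0.05, adjusted p = 0.126), and it was -0.68 (adjusted p = 0.00609) without the spleen HEL neg pool.

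**Figure D2:**
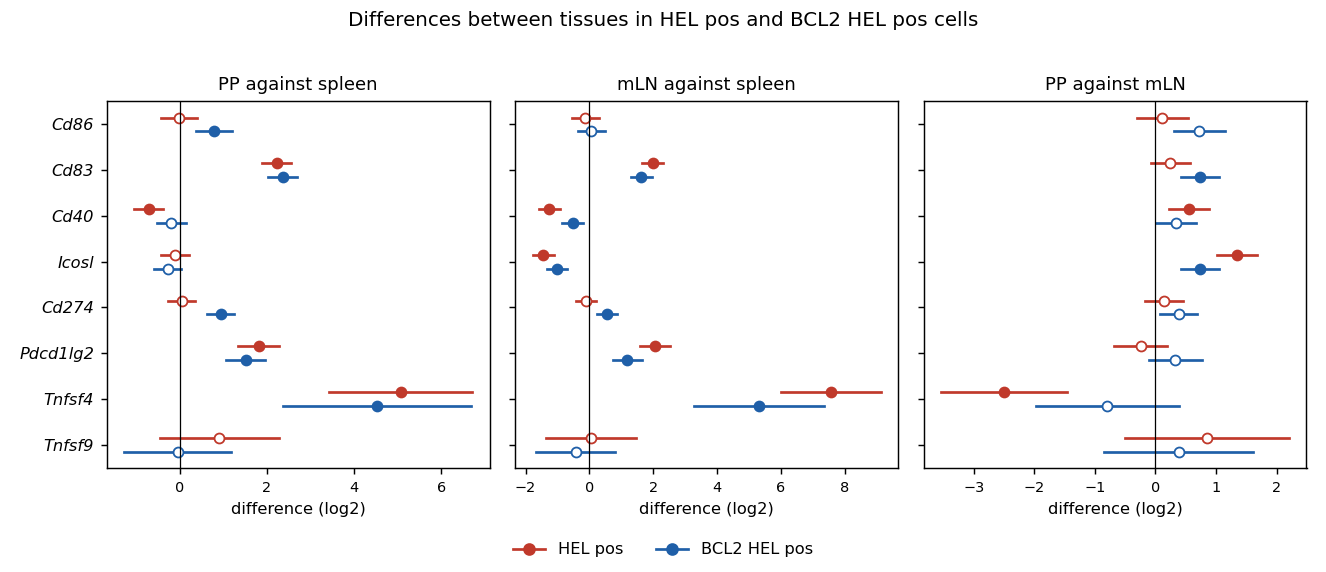
Differences between tissues (log2, horizontal axis) of the 8 genes tested, in HEL pos and BCL2 HEL pos cells, as edgeR estimates with 95% intervals, filled where the adjusted p was under 0.05. Cd83 and Pdcd1lg2 lie to the right of 0 in PP and mLN against spleen for both kinds of cells, Icosl and Cd40 lie to the left in mLN, and Cd274 is filled only for BCL2 HEL pos cells.

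The PD-1 ligand genes Cd274 (chromosome 19, 29367455 to 29388095) and Pdcd1lg2 (29410919 to 29471161) are neighbours on the plus strand, 22.8 kilobases apart. In HEL pos cells only Pdcd1lg2 of these neighbours was called between tissues, while in BCL2 HEL pos cells both means ran from PP over mLN to spleen. Because of the former, the 250 bases before each start site are shown, from RefSeq on GRCm38.p6, plus strand, 5′ to 3′. A RefSeq promoter entry was matched for 4 of the 10 genes.
Cd274 (chr19:29367188-29367437): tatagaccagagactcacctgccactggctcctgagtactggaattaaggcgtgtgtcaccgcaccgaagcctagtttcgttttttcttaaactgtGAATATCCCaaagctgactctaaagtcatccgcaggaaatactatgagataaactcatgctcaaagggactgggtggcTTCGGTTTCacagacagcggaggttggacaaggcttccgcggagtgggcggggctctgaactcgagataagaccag
Pdcd1lg2 (chr19:29410669-29410918): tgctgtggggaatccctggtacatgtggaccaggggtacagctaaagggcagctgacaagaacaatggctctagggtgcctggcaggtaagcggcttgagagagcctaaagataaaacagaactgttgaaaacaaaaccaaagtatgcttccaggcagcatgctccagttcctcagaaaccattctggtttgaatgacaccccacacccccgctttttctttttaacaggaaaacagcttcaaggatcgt
Letters searched on both strands were those of NF-kappaB (GGGNNNTTC), Egr (GCGNGGGCG), NR4A (AAAGGTCA), AP-1 (TGANTCA) and IRF (GAAANNGAA), which 11.8%, 4.7%, 1.34%, 6.75% and 7.13% of all 32851 windows of that length held. Capitals mark the 2 matches in the Cd274 window, GAATATCCC for NF-kappaB and TTCGGTTTC for IRF, both on the minus strand. The Pdcd1lg2 window held none of the 5 as written. Its stretch ggggaatccc is not covered by the NF-kappaB letters searched, and other forms of these motifs were not searched. The search therefore cannot tell whether the Cd274 and Pdcd1lg2 windows differ in NF-kappaB sites. The search was first run with 1 more letter at the 3′ end of these 2 motifs (4.65% and 2.98% of windows) and then found none in either window. A match of letters describes the sequence and is no evidence of binding, and no match says only that these letters are not in the window.

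Cd274 in HEL pos libraries Pool, 392 and 399 was at 76.0, 53.9 and 67.2 CPM in spleen, 51.7, 65.9 and 66.3 CPM in mLN and 58.8, 71.6 and 68.7 CPM in PP. These tissues overlapped, and the differences from spleen were 0.05 (95% interval -0.26 to 0.36) in PP and -0.10 (-0.41 to 0.21) in mLN. Among BCL2 HEL pos libraries 922, 926 and 950 the gene was at 53.1, 46.5 and 49.2 CPM in spleen, 71.3, 77.5 and 71.2 CPM in mLN and 79.9, 105 and 103 CPM in PP. Here the 3 tissues did not overlap. PP exceeded spleen by 0.94 ± 0.15 (adjusted p = 4.06e-04) and mLN exceeded spleen by 0.56 ± 0.15 (adjusted p = 0.0205). The mLN call was lost without spleen library 926 or 950 or mLN library 926 (adjusted p 0.0686 to 0.102).

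Whether the difference between tissues depends on the kind of cell was tested directly, as an interaction. For Cd274 between PP and spleen it was 0.89 ± 0.21, with a p of 4.09e-04 before and 0.146 after adjustment over all genes. DESeq2 gave 0.90 with an adjusted p of 0.0185, and edgeR without the filter on low counts gave 0.93 with an adjusted p of 0.0287. Within PP, BCL2 HEL pos cells had more Cd274 than HEL pos cells by 0.50 ± 0.15 (adjusted p = 0.0373). This was lost without PP HEL pos library Pool or 399 or PP BCL2 HEL pos library 926 or 950 (adjusted p 0.0614 to 0.108), and it was 0.43 (adjusted p = 0.318) without both PP HEL pos libraries 399 and Pool. In spleen the difference was -0.39 (adjusted p = 0.108), and -0.54 (adjusted p = 0.044) without spleen HEL pos library 392. The HEL neg pools held 57.4, 41.0 and 25.3 CPM in spleen, mLN and PP. HEL pos cells exceeded them by 0.68 ± 0.19 (adjusted p = 0.0407), which was 0.39 (adjusted p = 0.305) without the PP pool and was also lost without the mLN pool or any of 5 HEL pos libraries (spleen Pool and 399, mLN 392 and 399, PP 392) (adjusted p 0.0526 to 0.157), and without both PP HEL pos libraries 399 and Pool (adjusted p = 0.0696). For BCL2 HEL pos cells the difference was 0.72 (adjusted p = 0.0613), and 1.32 (adjusted p = 3.69e-04) without the spleen pool.

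Pdcd1lg2 in HEL pos libraries was at 29.0, 11.5 and 15.0 CPM in spleen, 89.5, 68.2 and 75.4 CPM in mLN and 60.9, 56.2 and 75.0 CPM in PP. In BCL2 HEL pos libraries it was at 42.3, 41.1 and 38.2 CPM in spleen, 89.7, 95.3 and 92.9 CPM in mLN and 105, 133 and 112 CPM in PP. Spleen was below mLN and PP without overlap in both kinds of cells, and the spleen HEL pos libraries were the lowest of all 21. Against spleen, the difference in HEL pos cells was 1.81 ± 0.23 in PP and 2.05 ± 0.23 in mLN (adjusted p = 2.05e-05 and 1.16e-06), and in BCL2 HEL pos cells 1.51 ± 0.22 and 1.19 ± 0.22 (adjusted p = 1.39e-04 and 0.00115). PP and mLN were not called apart. BCL2 HEL pos cells exceeded HEL pos cells by 1.13 ± 0.23 in spleen (adjusted p = 0.00291) and 0.83 ± 0.21 in PP (adjusted p = 0.0156), the latter lost without PP BCL2 HEL pos library 926 (adjusted p = 0.061) or without both PP HEL pos libraries 399 and Pool (adjusted p = 0.0774). In mLN the difference was 0.26 (95% interval -0.18 to 0.70). The HEL neg pools, at 51.7, 61.8 and 46.3 CPM in spleen, mLN and PP, were not called apart from either kind of cell. Without the spleen pool BCL2 HEL pos cells were higher by 0.93 (adjusted p = 0.00111).

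The balance of the pair was read as the ratio of Pdcd1lg2 to Cd274 counts per exon length. It was 0.706, 0.393 and 0.413 in the spleen HEL pos libraries, the only ones below 1. In mLN HEL pos libraries it was 3.20, 1.91 and 2.10, in PP HEL pos libraries 1.91, 1.45 and 2.01. The BCL2 HEL pos libraries had 1.47, 1.63 and 1.43 in spleen, 2.33, 2.27 and 2.41 in mLN and 2.43, 2.34 and 2.02 in PP, and the HEL neg pools had 1.66, 2.78 and 3.38. PD-L2 transcript per length thus exceeded PD-L1 transcript in 18 of 21 libraries. That order rests on the length of all annotated exons, 1961 bases for Pdcd1lg2 and 3622 for Cd274, which need not be the length expressed. Undivided, Cd274 counts were the higher in some of these libraries, such as 368 against 293 in spleen BCL2 HEL pos library 922. Over the 21 libraries the 2 genes had a Pearson correlation of 0.39 (log2 CPM, a description, as the libraries share tissues and those of 1 number may share a source).

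**Figure D3:**
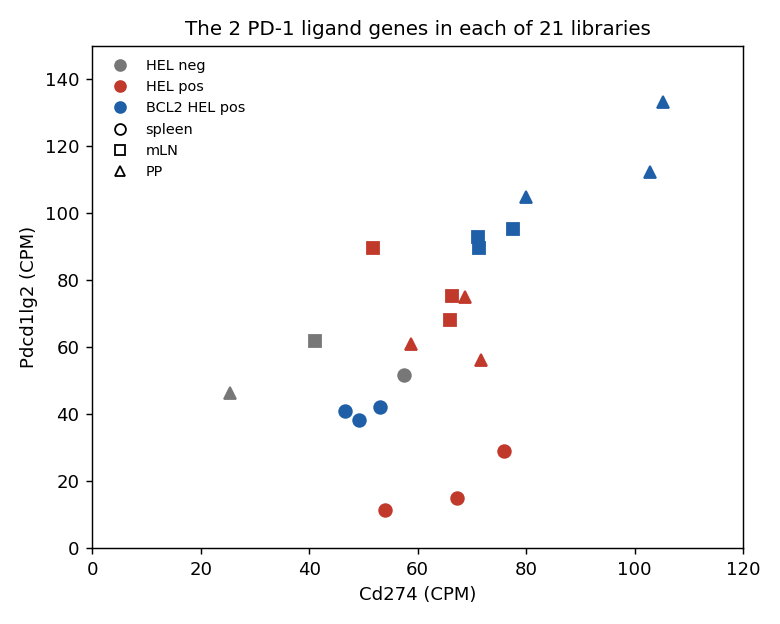
Pdcd1lg2 (vertical axis, CPM) against Cd274 (horizontal axis, CPM) in each of the 21 libraries, with kinds of cells by colour and tissues by marker shape. BCL2 HEL pos libraries run from 46.5 to 53.1 CPM of Cd274 in spleen up to 79.9 to 105 CPM in PP, while HEL pos libraries differ mainly along the Pdcd1lg2 axis.

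Tnfsf4, on chromosome 1 (161395409 to 161418410, plus strand), encodes OX40 ligand, which prolongs the response of activated T cells. It had 912 counts, and 718 of them were in the 3 mLN HEL pos libraries, at 27.2, 29.8 and 28.0 CPM. PP HEL pos libraries held 8.56, 2.25 and 3.71 CPM, mLN BCL2 HEL pos libraries 1.68, 3.02 and 2.38 CPM and PP BCL2 HEL pos libraries 1.02, 0.546 and 2.33 CPM. The spleen had 3 counts in HEL pos libraries, 1 in BCL2 HEL pos libraries and 0 in the HEL neg pool, and the other HEL neg pools had 0 as well. A count of 0 allows up to 0.503 CPM in the PP pool, the shallowest library, by counting error alone.

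Pooled over libraries, the ratio of mLN to spleen was 208.6 in HEL pos cells, with a counting interval of 71.1 to 1014, and 55.1 in BCL2 HEL pos cells (9.47 to 2215). The ratio of PP to spleen was 36.3 (12.1 to 179) and 33.6 (5.68 to 1359). All 4 differences were called (adjusted p = 3.26e-07, 0.00123, 1.62e-04 and 0.00882), and that of PP in BCL2 HEL pos cells was lost without PP library 950 (adjusted p = 0.0752). Tnfsf4 met the minimum count only through its high groups, so its tests describe that choice and by themselves support no difference. PP was below mLN in HEL pos cells, with a difference of -2.50 ± 0.50 (adjusted p = 0.00393). BCL2 HEL pos cells were below HEL pos cells, with a difference of -3.56 ± 0.53 in mLN (adjusted p = 1.85e-04), where groups were far apart. In PP the difference was -1.86 ± 0.55 (adjusted p = 0.0357), although library 950, at 2.33 CPM, was above HEL pos library 392. It was -1.13 (adjusted p = 0.196) without the pooled PP library and -0.69 (adjusted p = 0.663) without both PP HEL pos libraries 399 and Pool. Leaving out PP BCL2 HEL pos library 922 or 926 also ended the call (adjusted p = 0.107 and 0.114). With 3 counts over a HEL neg pool as the floor, mLN HEL pos cells had at least 59.1-fold and PP HEL pos cells at least 9.84-fold more than the HEL neg pool of their tissue, and BCL2 HEL pos cells at least 4.98-fold and 2.90-fold more.

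OX40 ligand is also made by activated dendritic cells, and markers of T cells and dendritic cells moved in mLN too. Of 10 T cell markers, Cd3d, Cd3e, Cd8a and Cd247 rose in mLN against spleen HEL pos cells and Cd2 fell, and 6 of 10 fell in mLN BCL2 HEL pos against HEL pos cells. Their summed level, most of which was Cd2, was 140 to 221 CPM in mLN HEL pos, 301 to 382 CPM in spleen HEL pos and 116 to 123 CPM in mLN BCL2 HEL pos libraries. Cd3e was at 9.31, 10.5 and 2.00 CPM in mLN HEL pos libraries Pool, 392 and 399, beside 27.2, 29.8 and 28.0 CPM of Tnfsf4. Of 6 dendritic cell markers tested, Ccr7 and Zbtb46 rose in mLN against spleen HEL pos cells and Flt3 fell, with summed levels of 695 to 801 and 389 to 472 CPM. None of the 6 was called between mLN BCL2 HEL pos and HEL pos cells. The part of these cells in the Tnfsf4 counts was not tested.

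Tnfsf9 and Cd70, which encode 4-1BB ligand and the ligand of CD27, lie 38.2 kilobases apart on chromosome 17 (57105325 to 57107757, plus strand, and 57145997 to 57149777, minus strand). Tnfsf9 stood at 7.30, 8.33 and 18.3 CPM in the HEL neg pools of spleen, mLN and PP. HEL pos libraries held 2.85, 0.929 and 0.147 CPM in spleen, 1.76, 1.12 and 1.33 CPM in mLN and 2.28, 3.15 and 2.03 CPM in PP. BCL2 HEL pos libraries held 3.03, 6.02 and 5.78 CPM in spleen, 3.07, 4.59 and 3.36 CPM in mLN and 1.79, 5.86 and 6.74 CPM in PP. The HEL neg pools were above all other libraries of their tissue, as with Cd80, and the marker values given there apply here. HEL pos cells were below them, with a difference of -2.62 ± 0.46 (adjusted p = 0.00317) and BCL2 HEL pos cells of -1.28 ± 0.35 (adjusted p = 0.0212). Without the PP pool these were -2.48 (adjusted p = 0.0673) and -0.86 (adjusted p = 0.239), and without the mLN pool the latter was -1.33 (adjusted p = 0.0679). No tissue difference was called. In spleen the BCL2 HEL pos libraries were all above the HEL pos libraries, by 1.88 ± 0.64 (adjusted p = 0.0681), and by 3.17 (adjusted p = 0.0121) without the spleen HEL pos pool. That difference was also called with DESeq2 (adjusted p = 0.0306) and without the filter (0.034), and in mLN one of 1.39 was called with only the libraries compared (0.0361). Cd70 had 1, 2 and 3 counts in the HEL neg pools of spleen, mLN and PP, 4 in the PP HEL pos pool, 1 in spleen BCL2 HEL pos library 926 and 0 in the other 16 libraries. No comparison of it was possible at this depth.

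**Figure D4:**
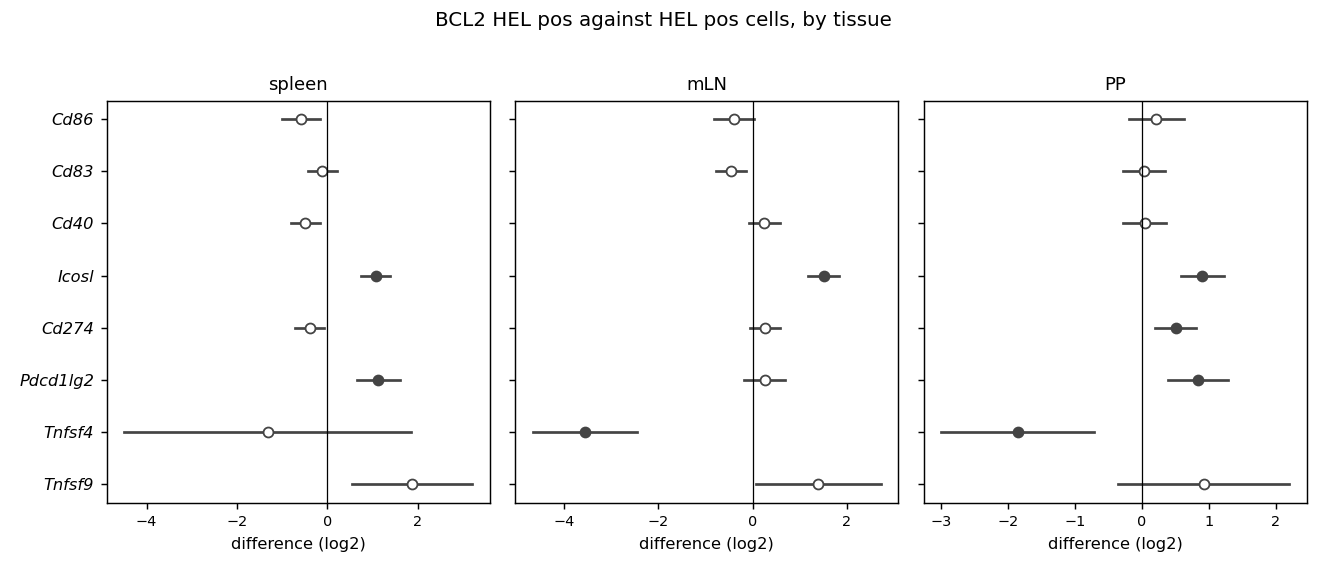
Differences between BCL2 HEL pos and HEL pos cells (log2, horizontal axis) within each tissue for the 8 genes tested, as edgeR estimates with 95% intervals, filled where the adjusted p was under 0.05. Icosl is filled to the right of 0 in all 3 tissues, at 0.90 to 1.51, and Tnfsf4 is filled to the left in mLN and PP.

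Counted by comparison and read against all genes tested, 4 of the 8 tested genes passed the test in HEL pos cells of PP against spleen (3 higher, 1 lower), and so did 15.4% of 11419 genes (7.94% higher, 7.43% lower). Between mLN and spleen HEL pos cells 5 were called (3 higher, 2 lower) against 24.5% of genes (12.9% higher, 11.5% lower). Between PP and mLN HEL pos cells it was 3 (2 higher, 1 lower) against 8.86% (5.34% higher, 3.52% lower). In BCL2 HEL pos cells 5 were called between PP and spleen, all higher in PP, against 7.34% of genes (4.81% higher, 2.53% lower). The others were 6 between mLN and spleen (4 higher, 2 lower) against 10% (5.77% higher, 4.23% lower, or 1773 genes in place of 1142 with the library number as a block), and 2 between PP and mLN, both higher in PP, against 1.16% (0.806% higher, 0.35% lower). The median difference of the 8 genes was 0.86 for PP against spleen and 0.31 for mLN against spleen in BCL2 HEL pos cells, with -0.02 for all genes in each. It was 0.48 and -0.02 in HEL pos cells, with 0.02 and -0.01 for all genes. Tnfsf4 met the minimum count only through its high groups, and the genes were chosen with earlier results of these data known. These counts and medians are therefore a description.

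Between BCL2 HEL pos and HEL pos cells 2 of 8 were called in spleen, both higher, against 9.37% of genes (4.55% higher, 4.82% lower). In mLN 2 were called, 1 in each direction, against 11.7% (5.78% higher, 5.9% lower). In PP 4 were called (3 higher, 1 lower) against 10.1% (5.33% higher, 4.74% lower). HEL pos against HEL neg cells gave 5 of 9 (2 higher, 3 lower) against 8.68% of 11406 genes (3.46% higher, 5.22% lower). BCL2 HEL pos against HEL neg cells gave 4 of 9 (1 higher, 3 lower) against 14.7% of 10987 genes (6.56% higher, 8.1% lower). Both comparisons use the same 3 HEL neg pools, and Cd80 and Tnfsf4, among those called in each, met the minimum count only through their high groups. With the genes chosen as stated, the counts of this paragraph are a description too. None of the 8 genes was called by edgeR for an interaction of kind of cell with tissue, where 0.00876% (PP against spleen), 0.385% (mLN against spleen) and 0.00876% (PP against mLN) of genes were called. DESeq2 called 1, 0 and 0 of the 8, beside 60, 163 and 28 of all genes. The interaction of mLN against spleen was 0.74 ± 0.22 for Cd40 (adjusted p = 0.192, and 0.72 with adjusted p = 0.0416 with the library number as a block) and -0.87 for Pdcd1lg2 (adjusted p = 0.313, and -1.34 with adjusted p = 0.0317 without the spleen HEL pos pool).

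The signalling side of CD40 was read from 23 genes of CD40 and NF-kappaB signalling, all of which were tested. In HEL pos cells 4 rose and 3 fell in PP against spleen, where 15.4% of all genes were called, and 5 rose and 6 fell in mLN, where 24.5% were. For BCL2 HEL pos cells, 3 rose and none fell in PP, and 2 rose and 5 fell in mLN, where 7.34% and 10% were. The medians of the list lay between -0.11 and 0.02, beside -0.02 to 0.02 for all genes. Among those that rose were Nfkbie, the inhibitor IkappaB-epsilon that NF-kappaB induces, by 1.20 ± 0.15 in mLN HEL pos cells (464 against 202 CPM, adjusted p = 6.09e-06), Rel by 0.87 ± 0.14 and Nfkbiz by 0.99 ± 0.15 in PP HEL pos cells. Birc3, an adaptor-bound ubiquitin ligase of the CD40 complex, fell by 1.11 ± 0.15 in mLN HEL pos cells (122 against 263 CPM, adjusted p = 9.04e-06) and by 0.84 ± 0.15 in mLN BCL2 HEL pos cells.

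Traf5, an adaptor that binds CD40, had an order of groups close to that of Icosl. Its HEL pos libraries held 72.0, 44.9 and 68.5 CPM in spleen, 27.9, 27.1 and 23.4 CPM in mLN and 38.9, 35.2 and 35.8 CPM in PP, and its BCL2 HEL pos libraries 85.7, 101 and 98.9, 56.7, 52.7 and 66.0, and 89.7, 70.8 and 87.1 CPM in the same tissues. BCL2 HEL pos cells were higher in all 3 tissues without overlap, by 0.63 ± 0.16 in spleen, 1.17 ± 0.17 in mLN and 1.14 ± 0.16 in PP (adjusted p = 0.0157, 1.27e-04 and 2.75e-04). The spleen call was lost without HEL pos library 392 (0.43, adjusted p = 0.109) or BCL2 HEL pos library 926 or 950 (adjusted p = 0.0723 and 0.0698). Map3k14, the kinase NIK of the alternative NF-kappaB pathway, was higher by 1.10 ± 0.17 in mLN and 0.82 ± 0.17 in PP, the latter 0.57 (adjusted p = 0.21) without PP HEL pos libraries 399 and Pool. In all, 1, 2 and 5 of the 23 rose and 0, 3 and 0 fell in BCL2 HEL pos against HEL pos cells of spleen, mLN and PP, beside 9.37%, 11.7% and 10.1% of all genes called.

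Of 13 genes known to regulate these ligands, Batf and Irf4, transcription factors of activated B cells, rose in mLN and PP of both kinds of cells. Batf stood at 40.5, 32.7 and 31.7 CPM in spleen HEL pos libraries, 177, 139.8 and 131 CPM in mLN and 96.0, 75.9 and 77.7 CPM in PP, with differences from spleen of 2.09 ± 0.17 and 1.29 ± 0.16 (adjusted p = 1.61e-08 and 2.36e-05). Between PP and mLN HEL pos cells it was the only one of the 13 called (-0.81 ± 0.16, adjusted p = 0.00346), beside 8.86% of all genes. Between BCL2 HEL pos and HEL pos cells of mLN it was again the only one (-0.86 ± 0.16, adjusted p = 0.00119), beside 11.7% of all genes. Irf4 rose by 1.45 ± 0.17 in mLN and 1.21 ± 0.17 in PP of HEL pos cells and by 1.11 ± 0.16 and 0.97 ± 0.16 in BCL2 HEL pos cells. Cmtm6, which protects PD-L1 protein from breakdown, fell by 0.57 ± 0.14 in mLN and 0.60 ± 0.14 in PP of HEL pos cells (adjusted p = 0.00495 and 0.00604), where Cd274 RNA was not called, and in PP the difference was -0.43 (adjusted p = 0.172) without PP HEL pos libraries 399 and Pool. In all, 2 of the 13 rose and 1 fell in each of these comparisons of HEL pos cells, with medians of 0.15 in mLN and 0.01 in PP, where 24.5% and 15.4% of all genes were called.

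**Figure D5:**
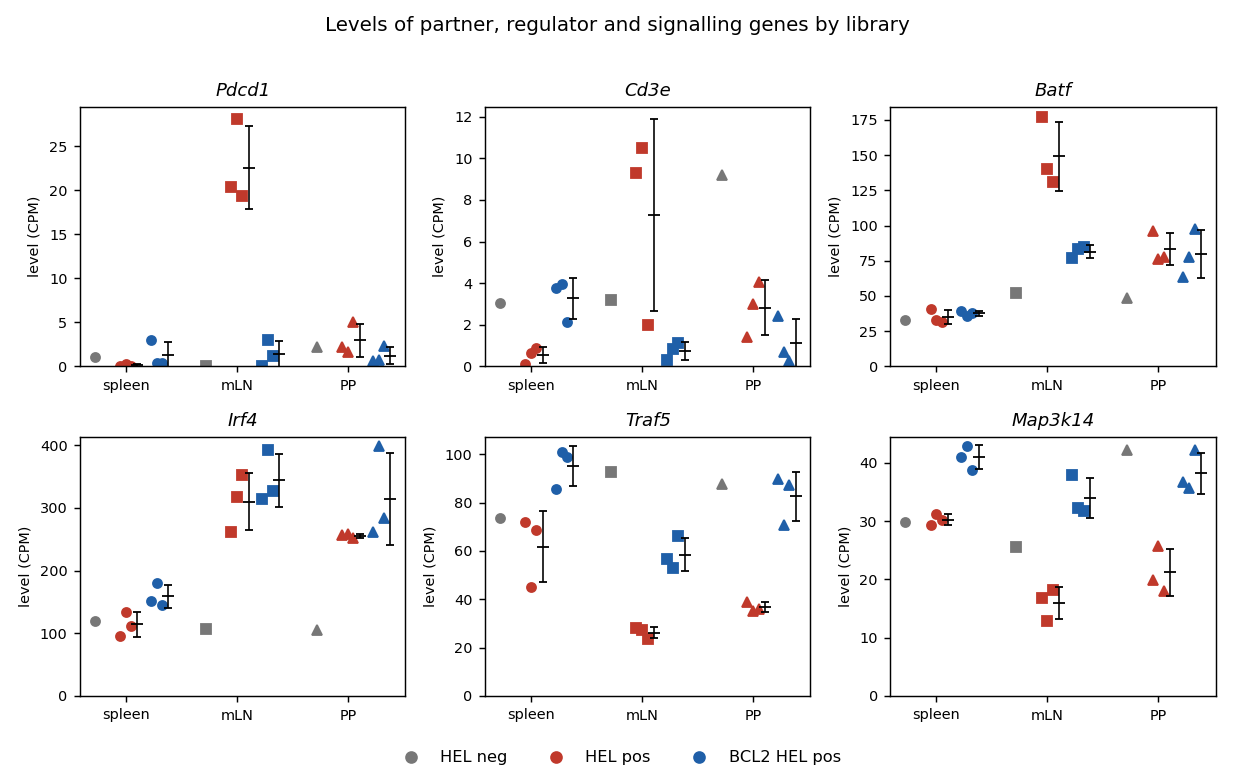
Levels (CPM, vertical axis) of the PD-1 gene Pdcd1, the T cell marker Cd3e, the transcription factors Batf and Irf4 and the signalling genes Traf5 and Map3k14 in each of the 21 libraries (points), with the mean and SD of groups of 3 (bars). The mLN HEL pos libraries lie at 19.3 to 28.0 CPM of Pdcd1 and 131 to 177 CPM of Batf, above all other libraries.

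The receptors that read these ligands are known mainly from T cells, and 7 of 9 were tested. Pdcd1, the PD-1 gene, was at 20.4, 28.0 and 19.3 CPM in mLN HEL pos libraries and at 0 to 5.07 CPM in all other libraries. Spleen HEL pos libraries held 2 counts in all. Against them the pooled ratio was 253.6 in mLN (counting interval 69.9 to 2099, adjusted p = 3.73e-05) and 31.4 in PP (8.31 to 266, adjusted p = 0.0109), and mLN BCL2 HEL pos cells were below mLN HEL pos cells, with a difference of -3.97 ± 0.82 (adjusted p = 0.00285). The PP call was lost without the spleen HEL pos pool (adjusted p = 0.0551), and without PP HEL pos libraries 399 and Pool (adjusted p = 0.177). Pdcd1 met the minimum count through libraries other than those of spleen HEL pos cells, so its tests against spleen are a description. Its interaction of mLN against spleen was called (adjusted p = 0.0276), but with a size that rests on the 2 spleen counts, and leaving out any of 8 libraries ended the call, most of all spleen BCL2 HEL pos library 922 (adjusted p = 0.252). Cd27, the receptor of CD70, was at 21.3, 16.2 and 11.3 CPM in mLN HEL pos libraries, above spleen by 1.78 ± 0.42 (adjusted p = 0.00304), and was lower in BCL2 HEL pos cells, with a difference of -1.70 ± 0.41 in mLN and -1.96 ± 0.45 in PP. These calls were lost without BCL2 HEL pos library 950 of that tissue (-1.43, adjusted p = 0.0733, and -1.56, adjusted p = 0.0522), and in PP also without HEL pos libraries 399 and Pool (adjusted p = 0.0983) or with only the libraries compared (0.0845). Rgmb, a binding partner of PD-L2, went the other way, with -2.62 ± 0.56 in mLN against spleen HEL pos cells and 2.13 ± 0.56 in mLN BCL2 HEL pos against HEL pos cells, the latter lost without mLN HEL pos library 392 or 399 or BCL2 HEL pos library 950 (adjusted p 0.0778 to 0.0917). The T cell marker values given with Tnfsf4 apply to Pdcd1 and Cd27 as well. Of Pdcd1, mLN HEL pos library 399 held 19.3 CPM beside 2.00 CPM of Cd3e. The PP HEL neg pool held 2.18 CPM of Pdcd1 beside 9.22 CPM of Cd3e. The part of T cells in the Pdcd1 and Cd27 counts was not tested.

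Genes whose log2 CPM ran most like that of each ligand were sought among 8547 genes over the 21 libraries, as a description, since libraries share tissues and sources. Among the genes most like Cd83 were Plk3 (Pearson r = 0.96) and Bcar3 (0.938), and Pdcd1lg2 was most like Rgs3 (0.934), Dusp4 (0.902) and Nbn (0.883). Cd40 was most like Tlr1 (0.969), Ncf4 (0.933) and Tyrobp (0.931), and Icosl like Il4ra (0.943), Scml4 (0.937) and Traf5 (0.93). Cd274 had weaker matches in Map3k1 (0.809), Atad1 (0.808) and Trmt11 (0.794), as had Cd86 in Thoc2 (0.761), Cyb5b (0.734) and Nol8 (0.73). Among the ligands themselves the strongest relations were negative, between Tnfsf4 and Cd40 (-0.845) and between Tnfsf4 and Icosl (-0.83), followed by the positive one of Cd83 with Pdcd1lg2 (0.761).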

How the data were processed

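Whole-number counts per gene were used as deposited by the authors, from single-end 50-base reads of an Illumina HiSeq 2500. The submitters' processing notes name STAR, HTSeq, DESeq2 and mm10, with roles and versions not given in the sources used here. Both TruSeq and Nextera XT kits appear in the labels, and no use was made of strand. Coordinates are from GENCODE M21. The members and gene lists were chosen with earlier results of these data known.

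Counts were filtered (filterByExpr by group), TMM-scaled and tested two-sided with edgeR 4.0.16 (quasi-likelihood, R 4.3.3). P-values were adjusted over all genes tested (Benjamini-Hochberg), and a call means an adjusted p under 0.05. One model of 18 libraries (11419 genes, 12 residual df, a biological coefficient of variation of 0.207) gave the tissue comparisons, the comparisons of BCL2 HEL pos with HEL pos and the 3 interactions. Comparisons with HEL neg used models of 12 libraries that held tissue as a covariate, with 11406 genes for HEL pos and 10987 for BCL2 HEL pos and 8 residual df each. CPM use TMM-scaled totals, on which 3 counts are 0.259 to 0.507 CPM. Counting intervals cover counting error only. Libraries of 1 number were compared by their deviations from group means. All 3 correlations were over 0.1 in PP and spleen HEL pos cells (0.105 to 0.243) and in mLN and spleen BCL2 HEL pos cells (0.103 to 0.185). In the other 4 tissue pairs not all were.

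Beside the members, at most 3 called genes per list and comparison were eligible for naming, by smallest p among those without overlap, and the 3 most alike genes of each member above 10 CPM, of which 1 is not reported here. On simulated counts for mLN against spleen in HEL pos cells (11177 genes), 23.9% of changes of 1.5-fold, 73.1% of 2-fold and 100% of 4-fold were recovered. Alternatives were DESeq2 1.42.0, its size factors, no filter, only the libraries compared, leaving out each library, the library number as a block, and leaving out the pooled HEL pos libraries or PP HEL pos libraries 399 and Pool.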

Additional observations from a re-analysis of the deposited data

How the results depend on the processing

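No member or listed gene changed direction while called under any alternative. Of the members' single tests under alternatives, 1546 kept their side of the threshold, 36 gained a call and 72 lost one, and of those of listed genes 1075 kept theirs and 139 lost it. With plain library totals or DESeq2 size factors, 89 of 92 group levels stayed within 1 SD. The number of members called moved by over 1.5 times as follows. For BCL2 HEL pos against HEL pos cells of spleen, 2 became 5 with DESeq2, 5 without the low-count filter and 4 with only the libraries compared. In mLN 2 became 5 with only the libraries compared. In PP 4 became 2 with only the libraries compared, 2 when the pooled HEL pos libraries were left out and 1 when PP HEL pos libraries 399 and Pool were. The interaction of PP with spleen went from 0 to 1 (Cd274) with DESeq2 and to 1 without the filter. HEL pos against HEL neg cells went from 5 to 3 without the pooled HEL pos libraries, and BCL2 HEL pos against HEL neg cells from 4 to 7 without the filter. Leaving out 1 library at a time gave 3 to 5 members for PP against spleen and 0 to 2 for PP against mLN in BCL2 HEL pos cells, 1 to 4 for BCL2 HEL pos against HEL pos cells of PP, 0 to 1 for the interaction of mLN with spleen, 2 to 5 for HEL pos and 1 to 7 for BCL2 HEL pos against HEL neg cells. The cause was not tested.

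Libraries of 1 number from different tissues correlated in their deviations by 0.0204 to 0.308 in HEL pos and 0.0528 to 0.197 in BCL2 HEL pos cells, and were all over 0.1 in 2 of 6 tissue pairs. In the other 4 not all were over 0.1. Libraries of different numbers correlated by -0.208 to 0.101 in HEL pos and -0.138 to 0.0507 in BCL2 HEL pos cells. Each library was most like its own number in all tissue pairs but spleen and mLN of HEL pos cells, where 2 of 3 were. With the number as a replicate block the interaction of mLN with spleen went from 0 to 1 member (Cd40, 0.72, adjusted p = 0.0416), and Cd86 was called between PP and mLN BCL2 HEL pos cells (0.68, adjusted p = 0.0252). Over all genes the block raised the calls of PP against mLN from 1012 to 1634 in HEL pos and from 132 to 480 in BCL2 HEL pos cells. In BCL2 HEL pos cells PP against spleen went from 838 to 1388 and mLN against spleen from 1142 to 1773, and the interactions went from 1 to 48 (PP and spleen), from 44 to 192 (mLN and spleen) and from 1 to 13 (PP and mLN).

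Counts over all genes moved by over 1.5 times elsewhere too. DESeq2 gave 1551 for HEL pos against HEL neg cells (990 by edgeR), 249 for PP against mLN BCL2 HEL pos cells and 60, 163 and 28 for the interactions in the order above. Without the filter these were 1495, 395, 114, 191 and 111. With only the libraries compared, PP against spleen and PP against mLN in HEL pos cells gave 800 (from 1756) and 344, mLN against spleen in BCL2 HEL pos cells 1946, BCL2 HEL pos against HEL pos cells 2105 in mLN (from 1334) and 286 in PP (from 1150), and the interaction of mLN with spleen 90. Without PP HEL pos libraries 399 and Pool, the calls were 640 for PP against spleen and 209 for PP against mLN in HEL pos cells, 255 for BCL2 HEL pos against HEL pos cells of PP, and 0, 70 and 0 for the interactions. Without the pooled HEL pos libraries they were 551 for PP against mLN in HEL pos cells and 3, 8 and 0 for the interactions. Leaving out 1 library moved 12 of the 14 gene counts by over 1.5 times, all but PP and mLN against spleen in HEL pos cells. HEL pos against HEL neg cells gave 176, 189 and 1574 without the PP, mLN and spleen HEL neg pools and 602 and 644 without mLN HEL pos libraries 392 and 399, and BCL2 HEL pos against HEL neg cells (1611) gave 1001 and 1010 without the PP and mLN pools. PP against mLN in HEL pos cells gave 374, 421 and 604 without mLN 392, mLN 399 and PP 399. BCL2 HEL pos against HEL pos cells of PP gave 670 and 638 without HEL pos 399 and BCL2 HEL pos 950. The lowest and highest counts were 569 and 911 (spleen, from 1070) and 654 and 1192 (mLN) for that comparison, 473 and 866, 561 and 862, and 25 and 98 for PP against spleen, mLN against spleen and PP against mLN in BCL2 HEL pos cells, and 1 and 23, 2 and 39, and 0 and 8 for the interactions. Low counts of Cd80, Cd70, Tnfsf4 and Tnfsf9 limit what could be seen of them, and each HEL neg value rests on 1 pool per tissue.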

Other observations

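Beyond the 10 ligands, 29 other ligands and adhesion molecules of contacts between B and T cells were in the table, and 20 were tested in the 18-library fit. In HEL pos cells 2 rose and 5 fell in PP against spleen (median -0.21) and 1 rose and 7 fell in mLN (median -0.21), beside medians of 0.02 and -0.01 for all genes and 15.4% and 24.5% of all genes called. Slamf6, a homophilic receptor of B and T cell contacts, was at 248 ± 7.60 CPM (SD, n = 3) in spleen, 106 ± 13.7 in mLN and 113 ± 8.96 in PP, and it fell by 1.23 ± 0.12 in mLN and by 1.10 ± 0.12 in PP (log2 ± SE, edgeR adjusted p = 2.24e-07 and 3.58e-06). Its HEL neg pools showed no such gap, at 214, 209 and 185 CPM in spleen, mLN and PP. Cd47, the signal that protects cells from being engulfed, was at 465 ± 70.2, 260.4 ± 26.0 and 249 ± 12.0 CPM in the same order and fell by 0.83 ± 0.12 and 0.87 ± 0.12. Cd24a was at 1300.2 ± 353 CPM in spleen and 301 ± 65.5 CPM in mLN (-2.11 ± 0.27, adjusted p = 6.81e-06). Icam1, an adhesion ligand that NF-kappaB induces, rose in PP by 0.66 ± 0.14 in HEL pos cells and by 1.08 ± 0.15 in BCL2 HEL pos cells.

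Cd276 and the gene of VISTA, relatives of the B7 family, differed between BCL2 HEL pos and HEL pos cells of spleen and PP. The VISTA gene, which encodes an inhibitory ligand and is listed under its older symbol 4632428N05Rik, was at 12.6 ± 3.36 CPM in spleen HEL pos and 43.6 ± 2.53 CPM in spleen BCL2 HEL pos cells (SD, n = 3), and it rose by 1.81 ± 0.27 in spleen and 1.33 ± 0.27 in PP (adjusted p = 1.51e-04 and 0.00393, the latter 0.0666 with only the libraries compared). In mLN the 2 kinds of cells had 19.7 ± 1.60 and 20.4 ± 2.58 CPM, and the interaction of mLN with spleen was -1.76 ± 0.37 (adjusted p = 0.0334), a call lost on leaving out any 1 of 11 of the 12 libraries concerned (adjusted p 0.0543 to 0.112). Cd276, which encodes B7-H3, was at 6.42 ± 1.74 CPM in spleen HEL pos and 0.525 ± 0.361 CPM in spleen BCL2 HEL pos cells, with differences of -3.56 ± 0.62 in spleen and -3.63 ± 0.63 in PP. It was at most 1.12 CPM in any BCL2 HEL pos library and met the minimum count only through HEL pos cells. Its tests therefore describe that choice and by themselves support no difference. Slamf1 was lower than in the HEL neg pools, at 69.8, 139.5 and 114 CPM in spleen, mLN and PP, by -1.67 ± 0.31 in HEL pos and -1.70 ± 0.20 in BCL2 HEL pos cells (adjusted p = 0.00424 and 2.86e-05), the former lost without the mLN pool (-0.85, adjusted p = 0.0706).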
